A study of Danio rerio with 3 samples.

Results

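The genes described here are transcription factors of B cells and early lymphoid cells together with genes of V(D)J recombination, in cells sorted from the adult zebrafish kidney. They were chosen by 10 symbols, *ikzf1*, *ikzf2*, *ikzf3*, *pax5*, *ebf1a*, *ebf1b*, *tcf3a*, *rag1*, *rag2*, and *dntt*, which were looked up without regard to letter case among the 32057 genes of the data. The lookup gave 9 genes, and *ikzf3* was not analysed here because its symbol matched no gene. The symbols *ebf1a* and *ebf1b* led to 2 genes that are both listed as EBF1 (ENSDARG00000099849 and ENSDARG00000069196), and the name tables used do not tell which is which. All samples came from adult fish of wild type genotype with the transgenes *gata2a:GFP* and *runx1:mCherry*. GFP thus reports on *gata2a*, a gene active in blood and in the lining of vessels, and a *Runx1* element taken from the mouse drives mCherry. After lysis of erythrocytes and exclusion of dead cells, non-granulocytic cells with low side scatter were sorted into *gata2a*+ *runx1*- cells, labelled as lymphoid-primed progenitors, *gata2a*+ *runx1*+ cells, labelled as HSCs, and *gata2a*- *runx1*+ cells, labelled as erythroid- and/or myeloid-primed progenitors. The study proposes that *gata2a*+ *runx1*- cells may also include some myeloid progenitors. RNA-seq was performed on 1 library per population. Differences therefore have no check by replicates, and how many fish or cells were pooled is not given in the sources used here.

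B and T lymphocytes build their antigen receptors by V(D)J recombination, in which the Rag1 and Rag2 proteins together cut DNA beside the receptor gene segments and the end joining proteins of the cell seal the breaks. In the mouse, the zinc finger protein Ikaros and the E proteins open the lymphoid program, Ebf1 specifies the B cell lineage, and Pax5 then holds cells to it. The kidney is the main blood-forming organ of adult fish and a site where B cells develop, whereas T cells mature in the thymus.

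Levels are RPM, the reads of a gene scaled to the total counted on genes, without correction for gene length, so that levels are compared here between libraries and not between genes. In each library 100% of the values corresponded to whole reads, and the libraries held between 8094670 and 8205803 reads. A floor of 3 reads, 0.366 to 0.371 RPM, was used for detection, and a gene without a read has an upper Wilson limit of 0.468 to 0.475 RPM. Where a share of all genes over 2-fold is given, it is of those over this floor in either library compared. A ratio given as at least is against this floor and leaves out the counting error of the reads in the other library, so that it is not a lower counting limit. Intervals are at 95% and, like the floor, cover counting error only, since PCR copies were not marked with molecular identifiers. The sort was visible in the transcript of *gata2a*, at 1354 RPM in the *gata2a*+ *runx1*- library, 344.4 RPM in the *gata2a*+ *runx1*+ library, and 11.8 RPM in the *gata2a*- *runx1*+ library. The transcript of *runx1* had 19, 39, and 29 reads in the same order of libraries. In bulk samples such as these, fewer cells of a type and less RNA per cell cannot be told apart.

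*ikzf1* (ENSDARG00000013539) encodes Ikaros, a zinc finger factor needed for lymphocyte development in the mouse and the zebrafish. It was at 482.2 RPM in the *gata2a*+ *runx1*- library (95% Wilson interval 467.3 to 497.5), 506.1 RPM in the *gata2a*+ *runx1*+ library (490.8 to 521.8), and 224.6 RPM in the *gata2a*- *runx1*+ library (214.6 to 235.1). The gene was well read in each library, with close levels in the *gata2a*+ ones. The ratio of *gata2a*+ *runx1*- to *gata2a*+ *runx1*+ cells was 0.953 (counting interval 0.912 to 0.996), a log2 ratio of -0.07 that turned to 0.03 when the reads were rescaled by the size factors of DESeq2. Against the *gata2a*- *runx1*+ library, *ikzf1* was 2.15-fold higher in the *gata2a*+ *runx1*- library (interval 2.03 to 2.27) and 2.25-fold higher in the *gata2a*+ *runx1*+ library (2.13 to 2.38).

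*ikzf2* (ENSDARG00000069111) encodes Helios, an Ikaros family protein known in the mouse from T cells and early blood progenitors. Its level was 120.0 RPM in the *gata2a*+ *runx1*- library (971 reads, interval 112.6 to 127.7), 34.0 RPM in the *gata2a*+ *runx1*+ library (276 reads, 30.2 to 38.2), and 0.97 RPM in the *gata2a*- *runx1*+ library (8 reads, 0.494 to 1.92). The levels of the 3 libraries thus stood in a graded order. Their counting intervals did not overlap, but differences beyond counting error were common at this depth. Fisher's exact test of the reads called 65.8% of the genes tested between the *gata2a*+ *runx1*- and *gata2a*+ *runx1*+ libraries. It called 68.6% between the *gata2a*+ *runx1*- and *gata2a*- *runx1*+ libraries and 58.4% between the *gata2a*+ *runx1*+ and *gata2a*- *runx1*+ libraries. Helios transcripts were 3.53-fold higher in the *gata2a*+ *runx1*- than in the *gata2a*+ *runx1*+ library (interval 3.09 to 4.05), and 123-fold higher in the *gata2a*+ *runx1*- than in the *gata2a*- *runx1*+ library (62.2 to 285.8). *gata2a*+ *runx1*+ cells exceeded *gata2a*- *runx1*+ cells by 34.8-fold (17.4 to 81.5).

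Set against *ikzf1* within the same library, which removes any scaling of the library, *ikzf2* had 24.9 reads per 100 reads of *ikzf1* in the *gata2a*+ *runx1*- library, 6.71 in the *gata2a*+ *runx1*+ library, and 0.434 in the *gata2a*- *runx1*+ library. This proportion was 3.71-fold higher in the *gata2a*+ *runx1*- than in the *gata2a*+ *runx1*+ library (interval 3.21 to 4.28) and 15.5-fold higher in the *gata2a*+ *runx1*+ than in the *gata2a*- *runx1*+ library (7.72 to 36.3). The 2 Ikaros family genes thus differed in how unevenly they were spread over the populations.

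*ikzf4* and *ikzf5* followed neither pattern. The first, which encodes the Eos protein, had 0 reads in the *gata2a*+ *runx1*- library, 45 reads in the *gata2a*+ *runx1*+ library, and 13 reads in the *gata2a*- *runx1*+ library. With 0 reads taken as 3 reads, it was 14.9-fold lower in the *gata2a*+ *runx1*- than in the *gata2a*+ *runx1*+ library and 4.27-fold lower in the *gata2a*+ *runx1*- than in the *gata2a*- *runx1*+ library. Neither ratio covers the counting error of the 45 and 13 reads, so neither is a lower limit. *ikzf4* was 3.50-fold higher in the *gata2a*+ *runx1*+ than in the *gata2a*- *runx1*+ library (interval 1.85 to 7.07). *ikzf5*, which encodes the Pegasus protein, was at 4.57 RPM in the *gata2a*+ *runx1*- library, 3.94 RPM in the *gata2a*+ *runx1*+ library, and 5.61 RPM in the *gata2a*- *runx1*+ library. The counting intervals of all 3 ratios included 1, for example 0.815 for *gata2a*+ *runx1*- over *gata2a*- *runx1*+ cells (interval 0.514 to 1.28), so that no difference was detectable at this depth.

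**Figure D1:**
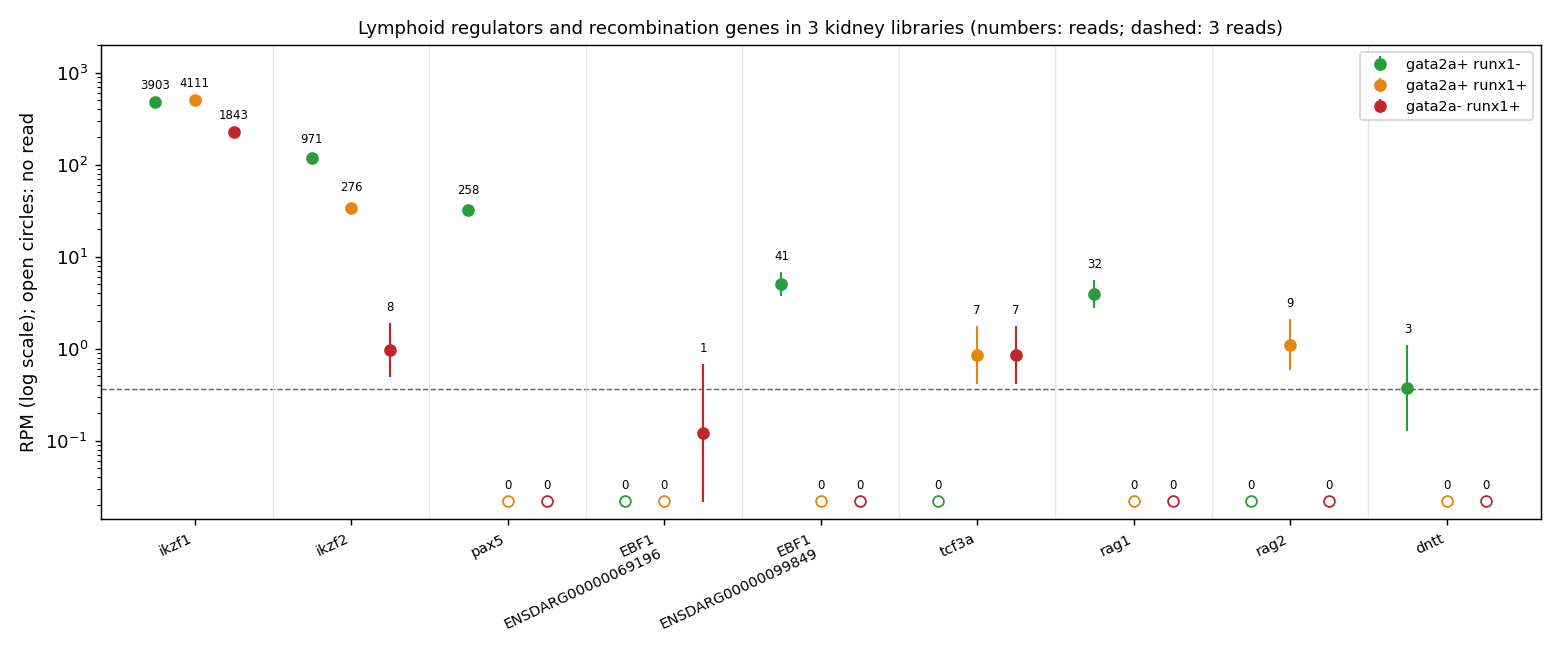
RPM on a log scale of the 9 matched genes in the *gata2a*+ *runx1*- (green), *gata2a*+ *runx1*+ (orange), and *gata2a*- *runx1*+ (red) libraries, 1 for each population. Filled points carry the number of reads and 95% Wilson intervals, open circles stand for no read, and the dashed line marks 3 reads. *ikzf1* is high in each library, *ikzf2* has 971, 276, and 8 reads in that order, and *pax5* has 258 reads in the *gata2a*+ *runx1*- library and no read in the others.

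*pax5* (ENSDARG00000037383), the factor that commits mouse progenitors to the B cell lineage, had 258 reads in the *gata2a*+ *runx1*- library, which is 31.9 RPM (interval 28.2 to 36.0), and 0 reads in both the *gata2a*+ *runx1*+ and the *gata2a*- *runx1*+ library. Taking 0 reads as 3 reads, it was at least 86.3-fold higher in the *gata2a*+ *runx1*- than in the *gata2a*+ *runx1*+ library and at least 87.2-fold higher in the *gata2a*+ *runx1*- than in the *gata2a*- *runx1*+ library. The lower counting limits of the same ratios were 69.7 and 70.4. Such a pattern was uncommon among genes read as often. Of 1293 genes with 200 to 350 reads in the *gata2a*+ *runx1*- library, 8 genes, or 0.619%, had no read in either other library. *pax5* itself is counted among these 8 genes. This window of reads was set after the value of *pax5* was seen.

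Of the pair of EBF1 genes, ENSDARG00000099849 had 41 reads in the *gata2a*+ *runx1*- library, or 5.07 RPM (interval 3.73 to 6.87), and 0 reads in the other two libraries. Counted against the floor, it was 13.7-fold higher in the *gata2a*+ *runx1*- than in the *gata2a*+ *runx1*+ library and 13.9-fold higher in the *gata2a*+ *runx1*- than in the *gata2a*- *runx1*+ library. Neither ratio covers the counting error of the 41 reads, so neither is a lower limit. The other copy, ENSDARG00000069196, had 0 reads in the *gata2a*+ *runx1*- and *gata2a*+ *runx1*+ libraries and 1 read in the *gata2a*- *runx1*+ library, so that its level was below detection throughout. One copy was thus read in the same library as *pax5*, whereas levels of the other could not be compared. Other genes read as often as the first copy shared its pattern. Of 1800 genes with 30 to 60 reads in the *gata2a*+ *runx1*- library, 92 genes, or 5.11%, this copy among them, had no read in either other library.

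The early B cell factor relatives were low. *ebf3b* had 20 reads in the *gata2a*+ *runx1*- library, 3 reads in the *gata2a*+ *runx1*+ library, and 1 read in the *gata2a*- *runx1*+ library, a ratio of 6.69 between the *gata2a*+ *runx1*- and *gata2a*+ *runx1*+ libraries with a wide interval of 1.98 to 35.2. *ebf2* had 2, 0, and 6 reads in the *gata2a*+ *runx1*-, *gata2a*+ *runx1*+, and *gata2a*- *runx1*+ libraries, and a gene listed as EBF3 had 2, 0, and 1 reads.

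*tcf3a* (ENSDARG00000005915) encodes an E protein, the class of helix-loop-helix factors that switches on the early B cell program in the mouse. It had 0 reads in the *gata2a*+ *runx1*- library, 7 reads in the *gata2a*+ *runx1*+ library (0.86 RPM, interval 0.417 to 1.78), and 7 reads in the *gata2a*- *runx1*+ library (0.85 RPM, 0.413 to 1.76). Its direction was opposite to that of *pax5*, but it rested on 14 reads in all. Counted against 3 reads, it was 2.33-fold lower in the *gata2a*+ *runx1*- than in the *gata2a*+ *runx1*+ library (adjusted p = 0.0254, Fisher's exact test of the reads of the 2 libraries). On the same count it was 2.30-fold lower in the *gata2a*+ *runx1*- than in the *gata2a*- *runx1*+ library (adjusted p = 0.0245, Fisher's exact test). Neither ratio covers the counting error of the 7 reads, so neither is a lower limit. Between the *gata2a*+ *runx1*+ and *gata2a*- *runx1*+ libraries its ratio was 1.01 (interval 0.302 to 3.37), a difference not detectable at this depth. Fisher's test called 65.8% of the genes tested between the *gata2a*+ *runx1*- and *gata2a*+ *runx1*+ libraries, 68.6% between the *gata2a*+ *runx1*- and *gata2a*- *runx1*+ libraries, and 58.4% between the *gata2a*+ *runx1*+ and *gata2a*- *runx1*+ libraries. A call by it thus separates few genes from the rest. The symbol is also an older name of *tcf7l1a* and *tcf3b*, and the identifier given here is the one analysed.

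The second E protein gene of this pair, *tcf3b*, had 0 reads in the *gata2a*+ *runx1*- library and 1 read in each of the *gata2a*+ *runx1*+ and *gata2a*- *runx1*+ libraries, and *tcf4* had 0 reads in each library. *tcf12*, which encodes the E protein HEB, was well read. Its level was 22.9 RPM in the *gata2a*+ *runx1*- library (185 reads), 93.9 RPM in the *gata2a*+ *runx1*+ library (763 reads), and 53.7 RPM in the *gata2a*- *runx1*+ library (441 reads). HEB transcripts were 4.11-fold lower in the *gata2a*+ *runx1*- than in the *gata2a*+ *runx1*+ library and 2.35-fold lower in the *gata2a*+ *runx1*- than in the *gata2a*- *runx1*+ library, so that *tcf12* and *tcf3a* were both lowest in the library that held the reads of *pax5*.

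Id proteins bind E proteins and keep them from DNA. *id3* was at 17.3 RPM in the *gata2a*+ *runx1*- library (140 reads), 10.7 RPM in the *gata2a*+ *runx1*+ library (87 reads), and 2.80 RPM in the *gata2a*- *runx1*+ library (23 reads), and a gene listed as ID2 was at 68.3 RPM in the *gata2a*+ *runx1*- library, 132.8 RPM in the *gata2a*+ *runx1*+ library, and 32.4 RPM in the *gata2a*- *runx1*+ library. *id2b* had 55 reads in the *gata2a*+ *runx1*- library and 0 reads in the others. Counted against the floor, it was 18.4-fold higher in the *gata2a*+ *runx1*- than in the *gata2a*+ *runx1*+ library, which is not a lower limit. The highest level of ID2 was therefore in the *gata2a*+ *runx1*+ library, and that of *id3* and *id2b* in the *gata2a*+ *runx1*- library. *id1* had 14, 8, and 5 reads in the *gata2a*+ *runx1*-, *gata2a*+ *runx1*+, and *gata2a*- *runx1*+ libraries, and *id4* had 0, 6, and 0 reads.

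Measured within a library, *id3* had 75.7 reads per 100 reads of *tcf12* in the *gata2a*+ *runx1*- library, 11.4 in the *gata2a*+ *runx1*+ library, and 5.22 in the *gata2a*- *runx1*+ library. The proportion was 6.64-fold higher in the *gata2a*+ *runx1*- than in the *gata2a*+ *runx1*+ library (interval 4.80 to 9.18) and 14.5-fold higher in the *gata2a*+ *runx1*- than in the *gata2a*- *runx1*+ library (8.91 to 24.3). For ID2 it was 298.9 reads per 100 reads of *tcf12* in the *gata2a*+ *runx1*- library, 141.4 in the *gata2a*+ *runx1*+ library, and 60.3 in the *gata2a*- *runx1*+ library, which is 2.11-fold higher in the *gata2a*+ *runx1*- than in the *gata2a*+ *runx1*+ library (1.74 to 2.57). Both Id genes thus took a larger proportion relative to *tcf12* in the *gata2a*+ *runx1*- library, although the level of ID2 alone was 1.94-fold lower in the *gata2a*+ *runx1*- than in the *gata2a*+ *runx1*+ library.

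Over the whole list of relatives, 13 of 14 symbols of the Ikaros, E protein, Id, and early B cell factor families were matched. Of 9 over the floor in either library, 2 were over 2-fold higher and 2 over 2-fold lower in the *gata2a*+ *runx1*- than in the *gata2a*+ *runx1*+ library, and the median log2(RPM + 1) difference over the 7 that averaged at least 1 RPM was 0.17. Over all genes 24.0% were over 2-fold higher and 20.5% over 2-fold lower there, near the shares of the list. The median turned to -0.95 with a minimum mean of 5 RPM. Against the *gata2a*- *runx1*+ library, 5 of 9 were over 2-fold higher and 2 over 2-fold lower, beside 29.0% and 20.1% of all genes. The median over the same 7 genes was 0.76, but 0.00 without a minimum mean and 0.26 with a pseudocount of 5. The *gata2a*+ *runx1*+ library had 4 of 8 over 2-fold higher and 0 over 2-fold lower than the *gata2a*- *runx1*+ library, beside 23.5% and 13.5% of all genes. The median was 0.79, but 0.29 without a minimum mean and 1.62 with one of 5 RPM. The medians of all 12339 genes that averaged at least 1 RPM were -0.05, 0.01, and 0.07 in these 3 comparisons.

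**Figure D2:**
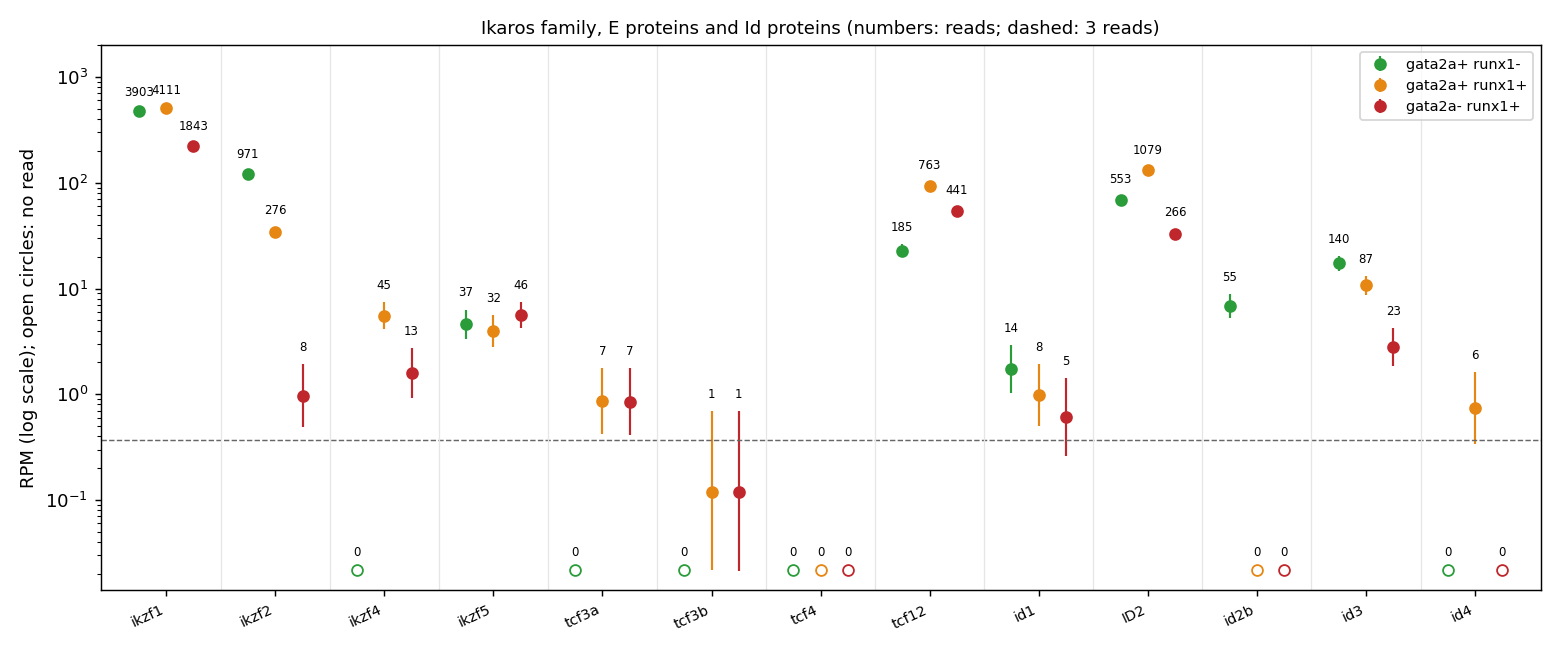
RPM on a log scale of the Ikaros family, E protein, and Id genes in the *gata2a*+ *runx1*- (green), *gata2a*+ *runx1*+ (orange), and *gata2a*- *runx1*+ (red) libraries, with the number of reads at each point. Bars are 95% Wilson intervals, open circles stand for no read, and the dashed line marks 3 reads. *tcf12* is lowest in the *gata2a*+ *runx1*- library with 185 reads, and *id3* is highest there with 140 reads.

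The recombinase genes had few reads. *rag1* (ENSDARG00000052122) had 32 reads in the *gata2a*+ *runx1*- library, a level of 3.95 RPM with an interval of 2.80 to 5.58, against 0 reads in the *gata2a*+ *runx1*+ library and 0 reads in the *gata2a*- *runx1*+ library. The floor makes this at least 10.7-fold higher in the *gata2a*+ *runx1*- than in the *gata2a*+ *runx1*+ library and at least 10.8-fold higher in the *gata2a*+ *runx1*- than in the *gata2a*- *runx1*+ library, with lower counting limits of 8.21 and 8.30. Of 1800 genes with 30 to 60 reads in the *gata2a*+ *runx1*- library, 92 genes, or 5.11%, had no read in either other library, so that the pattern is less rare at this depth than that of *pax5*. EBF1 ENSDARG00000099849, *id2b*, and *tbx21*, with 41, 55, and 39 reads in that library and 0 reads elsewhere, lie in the same window. By qPCR on the sorted populations, the study reports *rag1* in *gata2a*+ *runx1*- cells only. It does not say whether the RNA was other than that of the libraries.

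*rag2* (ENSDARG00000052121), whose protein works only together with Rag1, was read in another library. It had 0 reads in the *gata2a*+ *runx1*- library, 9 reads in the *gata2a*+ *runx1*+ library, or 1.11 RPM (interval 0.583 to 2.11), and 0 reads in the *gata2a*- *runx1*+ library. Counted against the floor, *rag2* was 2.99-fold lower in the *gata2a*+ *runx1*- than in the *gata2a*+ *runx1*+ library (adjusted p = 0.00712, Fisher's exact test of the reads of the 2 libraries). It was 3.03-fold higher in the *gata2a*+ *runx1*+ than in the *gata2a*- *runx1*+ library (adjusted p = 0.00421, Fisher's exact test). Neither ratio covers the counting error of the 9 reads, so neither is a lower limit. Among 2526 genes with 5 to 15 reads in the *gata2a*+ *runx1*+ library, 312 genes, or 12.4%, had no read in the other two libraries. The read windows for *rag1* and *rag2* were likewise set after their values were seen, and each count includes the gene itself.

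The annotation places *rag1* and *rag2* next to each other, with 0 genes between them in RefSeq's gene order of assembly GRCz12tu. No library held reads of both genes, and the ratio of *rag1* to *rag2* reads was higher in the *gata2a*+ *runx1*- than in the *gata2a*+ *runx1*+ library by at least 33.8-fold at its lower counting limit. Of the reads of the pair, *rag1* thus had 32 of 32 in the *gata2a*+ *runx1*- library and 0 of 9 in the *gata2a*+ *runx1*+ library. Whether the lack of *rag2* reads in the *gata2a*+ *runx1*- library holds in other libraries of these cells was not tested, nor was the share of PCR copies among the 9 reads.

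*dntt* (ENSDARG00000104792) encodes terminal transferase, which adds bases without a template at the joints of receptor segments. It had 3 reads in the *gata2a*+ *runx1*- library, or 0.37 RPM (interval 0.126 to 1.09), and 0 reads in the other two libraries. These reads are at the floor, and a difference between libraries was not detectable at this depth.

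The broader machinery that joins the broken ends was read in each population. Of the 20 genes of V(D)J cofactors and end joining, 18 were over the floor in the *gata2a*+ *runx1*- library, 18 in the *gata2a*+ *runx1*+ library, and 17 in the *gata2a*- *runx1*+ library. Between the *gata2a*+ *runx1*- and *gata2a*+ *runx1*+ libraries, 0 genes were over 2-fold higher and 3 were over 2-fold lower, of 18 over the floor in either library, beside 24.0% and 20.5% of all genes. *hmgb1b*, a DNA-bending cofactor of the recombinase, was at 58.9 RPM in the *gata2a*+ *runx1*- library and 129.0 RPM in the *gata2a*+ *runx1*+ library, which is 2.19-fold lower, and *tp53bp1*, which shields broken ends from resection, was 2.36-fold lower. *polm* encodes DNA polymerase mu, the closest relative of terminal transferase. It had 11 reads in the *gata2a*+ *runx1*- library and 57 reads in the *gata2a*+ *runx1*+ library, a level 5.16-fold lower, and 7 reads in the *gata2a*- *runx1*+ library, so that it was 8.23-fold higher in the *gata2a*+ *runx1*+ than in the *gata2a*- *runx1*+ library (interval 3.74 to 21.4).

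Against the *gata2a*- *runx1*+ library, 0 of 18 end joining genes were over 2-fold higher in the *gata2a*+ *runx1*- library and 1 was over 2-fold lower, beside 29.0% and 20.1% of all genes. It was *poll*, which encodes DNA polymerase lambda, with 120 reads in the *gata2a*+ *runx1*- library and 261 reads in the *gata2a*- *runx1*+ library (2.15-fold lower). The median difference of log2(RPM + 1) over the 17 list genes that averaged at least 1 RPM was -0.31 between the *gata2a*+ *runx1*- and *gata2a*+ *runx1*+ libraries and -0.32 between the *gata2a*+ *runx1*- and *gata2a*- *runx1*+ libraries, beside -0.05 and 0.01 over all genes. Between the *gata2a*+ *runx1*+ and *gata2a*- *runx1*+ libraries, 2 of 18 were over 2-fold higher and 1 over 2-fold lower in the *gata2a*+ *runx1*+ library, beside 23.5% and 13.5% of all genes. The median was 0.25. The ligase gene *lig4* and its partner *xrcc4*, named after their values were seen, were at 27.2 and 19.5 RPM in the *gata2a*+ *runx1*- library, 26.3 and 23.8 RPM in the *gata2a*+ *runx1*+ library, and 25.1 and 23.8 RPM in the *gata2a*- *runx1*+ library. None of the ratios of this pair had a counting interval that excludes 1. In contrast to *rag1* and *rag2*, *lig4* and *xrcc4* were hence well read in each library. Not all genes of the list were. *dclre1c* had 4, 6, and 2 reads and *pnkp* 0, 0, and 1 reads in the *gata2a*+ *runx1*-, *gata2a*+ *runx1*+, and *gata2a*- *runx1*+ libraries, both likewise named after their values were seen.

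Counted over the 9 genes, 7 were over the floor in the *gata2a*+ *runx1*- or *gata2a*+ *runx1*+ library. Of these, 4 were over 2-fold higher in the *gata2a*+ *runx1*- library (*ikzf2*, *pax5*, EBF1 ENSDARG00000099849, and *rag1*), where 24.0% of all 15724 genes tested were, and 2 were over 2-fold lower (*tcf3a* and *rag2*), where 20.5% of all genes were. Between the *gata2a*+ *runx1*- and *gata2a*- *runx1*+ libraries, 6 of the 9 were over the floor in either library. The same 4 genes and *ikzf1* made 5 that were over 2-fold higher in the *gata2a*+ *runx1*- library, beside 29.0% of 15375 genes, and *tcf3a* was the 1 over 2-fold lower, beside 20.1%. Between the *gata2a*+ *runx1*+ and *gata2a*- *runx1*+ libraries, 4 of the 9 were over the floor, of which 3 were over 2-fold higher in the *gata2a*+ *runx1*+ library (*ikzf1*, *ikzf2*, and *rag2*; 23.5% of 14886 genes) and 0 were over 2-fold lower (13.5%). These comparisons share libraries and are not independent of each other.

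Enrichment was next taken as a level over 2-fold higher than in both other libraries. Of the 7 genes with over 3 reads in any library, 4 were enriched in the *gata2a*+ *runx1*- library (*ikzf2*, *pax5*, EBF1 ENSDARG00000099849, and *rag1*). The share was 17.8% of the 16501 genes with over 3 reads in any library. In the *gata2a*+ *runx1*+ library 1 was enriched (*rag2*), beside 8.95%, and in the *gata2a*- *runx1*+ library 0, beside 7.05%. The low counts set what can be said of single genes: the ratios of *tcf3a* and *rag2* against a library without a read are set by the floor of 3 reads, and both genes are at or under the floor throughout when that is set at 10 reads. The ratios of *pax5*, EBF1 ENSDARG00000099849, and *rag1* also depend on the floor. With a floor of 10 reads, their log2 ratios of *gata2a*+ *runx1*- over *gata2a*+ *runx1*+ cells went from 6.43 to 4.69, from 3.78 to 2.04, and from 3.42 to 1.68. All stayed over 2-fold higher.

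**Figure D3:**
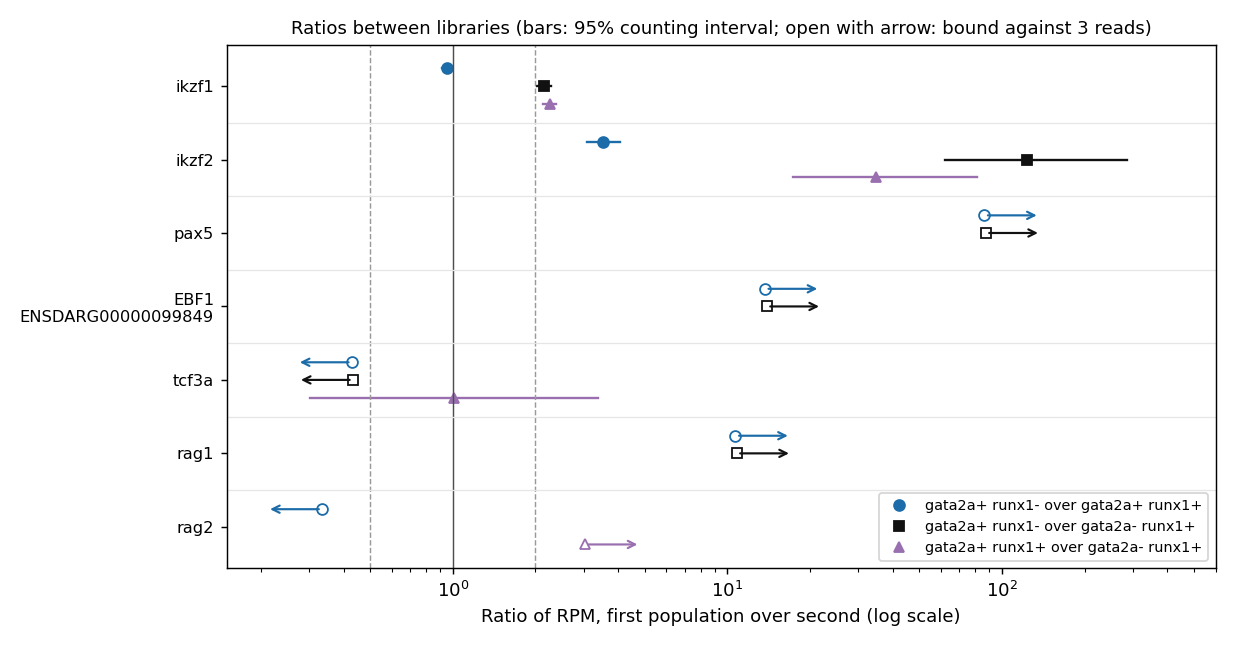
Ratios of RPM on a log scale for the matched genes in the 3 comparisons, *gata2a*+ *runx1*- over *gata2a*+ *runx1*+, *gata2a*+ *runx1*- over *gata2a*- *runx1*+, and *gata2a*+ *runx1*+ over *gata2a*- *runx1*+ cells. Bars are counting intervals, arrows mark ratios against a library with no read, computed against 3 reads, and genes at or under the floor in both libraries have no point. *pax5*, EBF1 ENSDARG00000099849, and *rag1* lie to the right in both comparisons of *gata2a*+ *runx1*- cells, whereas *tcf3a* lies to the left in both.

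The list of other B lineage regulators held genes that were higher and genes that were lower in the *gata2a*+ *runx1*- library. Of 22 list genes matched, 17 were over the floor in the *gata2a*+ *runx1*- or *gata2a*+ *runx1*+ library, of which 6 were over 2-fold higher and 3 over 2-fold lower in the *gata2a*+ *runx1*- library, beside 24.0% and 20.5% of all genes. The median log2(RPM + 1) difference was 0.08. *irf8*, a factor of B cells and myeloid cells, was at 358.9 RPM in the *gata2a*+ *runx1*- library, 20.1 RPM in the *gata2a*+ *runx1*+ library, and 20.4 RPM in the *gata2a*- *runx1*+ library, which is 17.9-fold higher in the *gata2a*+ *runx1*- than in the *gata2a*+ *runx1*+ library. *spi1b*, the gene of the myeloid and B cell factor Pu.1, was at 516.1 RPM in the *gata2a*+ *runx1*- library, 55.8 RPM in the *gata2a*+ *runx1*+ library, and 91.4 RPM in the *gata2a*- *runx1*+ library, and was 9.26-fold higher in the *gata2a*+ *runx1*- than in the *gata2a*+ *runx1*+ library.

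The paralogs of interferon regulatory factor 4, which acts in late B cells and plasma cells of the mouse, went opposite ways. *irf4b* had 159 reads in the *gata2a*+ *runx1*- library and 0 reads in the others. Counted against the floor, it was 53.2-fold higher in the *gata2a*+ *runx1*- than in the *gata2a*+ *runx1*+ library, which is not a lower limit. Like *pax5*, it was read in that library only, but how many genes read as often share this pattern was not counted. The gene listed as IRF4 had 10 reads in the *gata2a*+ *runx1*- library, 199 reads in the *gata2a*+ *runx1*+ library, and 83 reads in the *gata2a*- *runx1*+ library, and was 19.8-fold lower in the *gata2a*+ *runx1*- than in the *gata2a*+ *runx1*+ library. A gene listed as BCL11A, needed for early B cells in the mouse, was at 10.6 RPM in the *gata2a*+ *runx1*- library, 87.8 RPM in the *gata2a*+ *runx1*+ library, and 25.4 RPM in the *gata2a*- *runx1*+ library, and was 8.26-fold lower in the *gata2a*+ *runx1*- than in the *gata2a*+ *runx1*+ library.

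Against the *gata2a*- *runx1*+ library, 7 of 17 list genes were over 2-fold higher and 5 over 2-fold lower in the *gata2a*+ *runx1*- library, beside 29.0% and 20.1% of all genes. The median was 0.48. *xbp1*, which drives the secretory program of plasma cells, was 11.4-fold higher, at 1863 RPM in the *gata2a*+ *runx1*- library, 738.0 RPM in the *gata2a*+ *runx1*+ library, and 163.9 RPM in the *gata2a*- *runx1*+ library. *bcl6ab*, a relative of the germinal centre repressor Bcl6 of mammals, was 7.36-fold higher, and *spi1a* 6.46-fold higher. Of 15 list genes over the floor in the *gata2a*+ *runx1*+ or *gata2a*- *runx1*+ library, 5 were over 2-fold higher and 0 over 2-fold lower in the *gata2a*+ *runx1*+ library, beside 23.5% and 13.5% of all genes. The median was 0.40.

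Genes of the receptors of pre-B and B cells and of their signalling were mostly higher in the *gata2a*+ *runx1*- library. Of 18 matched list genes, all over the floor in the *gata2a*+ *runx1*- library, 13 were over 2-fold higher than in the *gata2a*+ *runx1*+ library and 14 than in the *gata2a*- *runx1*+ library, with 0 over 2-fold lower in either comparison. Of all genes, 24.0% and 29.0% were higher and 20.5% and 20.1% lower in these comparisons. Their median log2(RPM + 1) difference was 1.78 against the *gata2a*+ *runx1*+ library, but 1.24 with a pseudocount of 5 and 1.49 without a minimum mean. Against the *gata2a*- *runx1*+ library it was 2.96, but 1.70 with a pseudocount of 5. *ighm*, the constant region of the IgM heavy chain, was at 2023 RPM in the *gata2a*+ *runx1*- library, 64.9 RPM in the *gata2a*+ *runx1*+ library, and 11.2 RPM in the *gata2a*- *runx1*+ library, and *ighz*, the fish-specific heavy chain, had 1118 reads in the *gata2a*+ *runx1*- library and 0 reads elsewhere. By qPCR, the study reports *ighm* in *gata2a*+ *runx1*- cells only, whereas each library held reads of it here.

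*cd79a*, a signalling chain of the receptor, was at 153.8 RPM in the *gata2a*+ *runx1*- library, 6.03 RPM in the *gata2a*+ *runx1*+ library, and 2.19 RPM in the *gata2a*- *runx1*+ library. *blnk*, the adaptor that links the receptor to its kinases, had 469 reads in the *gata2a*+ *runx1*- library, 10 reads in the *gata2a*+ *runx1*+ library, and 21 reads in the *gata2a*- *runx1*+ library, and the B cell tetraspanin *cd37* had 530, 1, and 0 reads in the same order. *btk*, the kinase downstream of the receptor and also used by myeloid cells, was chosen after its values were seen and differed by 1.02-fold between the *gata2a*+ *runx1*- and *gata2a*+ *runx1*+ libraries (interval 0.912 to 1.13). Reads of *ighm* and *cd79a* were over the floor in the *gata2a*+ *runx1*+ and *gata2a*- *runx1*+ libraries, where *pax5*, *rag1*, and both EBF1 genes were not. Between these libraries, 6 of 13 list genes were over 2-fold higher and 1 over 2-fold lower in the *gata2a*+ *runx1*+ library, beside 23.5% and 13.5% of all genes. The median was 0.31.

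Regulators of T cells and innate lymphoid cells were counted in the same way. Of 16 matched genes, 15 were over the floor in the *gata2a*+ *runx1*- or *gata2a*+ *runx1*+ library, with 10 over 2-fold higher and 4 over 2-fold lower in the *gata2a*+ *runx1*- library, beside 24.0% and 20.5% of all genes, and a median of 1.42. This median was 0.99 with a pseudocount of 5 and 1.16 without a minimum mean. The 10 higher genes included *nfil3*, with 6 and 0 reads in these libraries, and *bcl11bb*, with 8 and 0 reads. Their ratios were set by the floor of 3 reads. Against the *gata2a*- *runx1*+ library, 11 of 15 were over 2-fold higher and 3 over 2-fold lower, beside 29.0% and 20.1% of all genes. The median was 2.20 over genes that averaged at least 1 RPM, but 1.14 without a minimum mean and 1.04 with a pseudocount of 5. *gata3*, a factor of T cells and innate lymphoid cells, was at 369.4 RPM in the *gata2a*+ *runx1*- library, 34.3 RPM in the *gata2a*+ *runx1*+ library, and 18.5 RPM in the *gata2a*- *runx1*+ library, and was 10.8-fold higher in the *gata2a*+ *runx1*- than in the *gata2a*+ *runx1*+ library.

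*tbx21*, which encodes T-bet, had 39 reads in the *gata2a*+ *runx1*- library and 0 reads in the others. *tox*, a factor of developing T cells, had an order like that of *ikzf2*, with 23.5 RPM in the *gata2a*+ *runx1*- library, 3.94 RPM in the *gata2a*+ *runx1*+ library, and 0.85 RPM in the *gata2a*- *runx1*+ library. The pair of genes listed as NOTCH1, the receptor that directs progenitors to the T lineage, split: ENSDARG00000103554 had 84, 2, and 17 reads in the *gata2a*+ *runx1*-, *gata2a*+ *runx1*+, and *gata2a*- *runx1*+ libraries, and ENSDARG00000052094 had 0, 54, and 42 reads. *tox2* was 8.12-fold lower in the *gata2a*+ *runx1*- than in the *gata2a*+ *runx1*+ library, with 13 and 106 reads. Between the *gata2a*+ *runx1*+ and *gata2a*- *runx1*+ libraries, *rorc*, a factor of innate lymphoid and helper T cells, had 66 and 2 reads, and 5 of 13 list genes were over 2-fold higher and 2 over 2-fold lower in the *gata2a*+ *runx1*+ library, beside 23.5% and 13.5% of all genes. The median was 0.68.

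**Figure D4:**
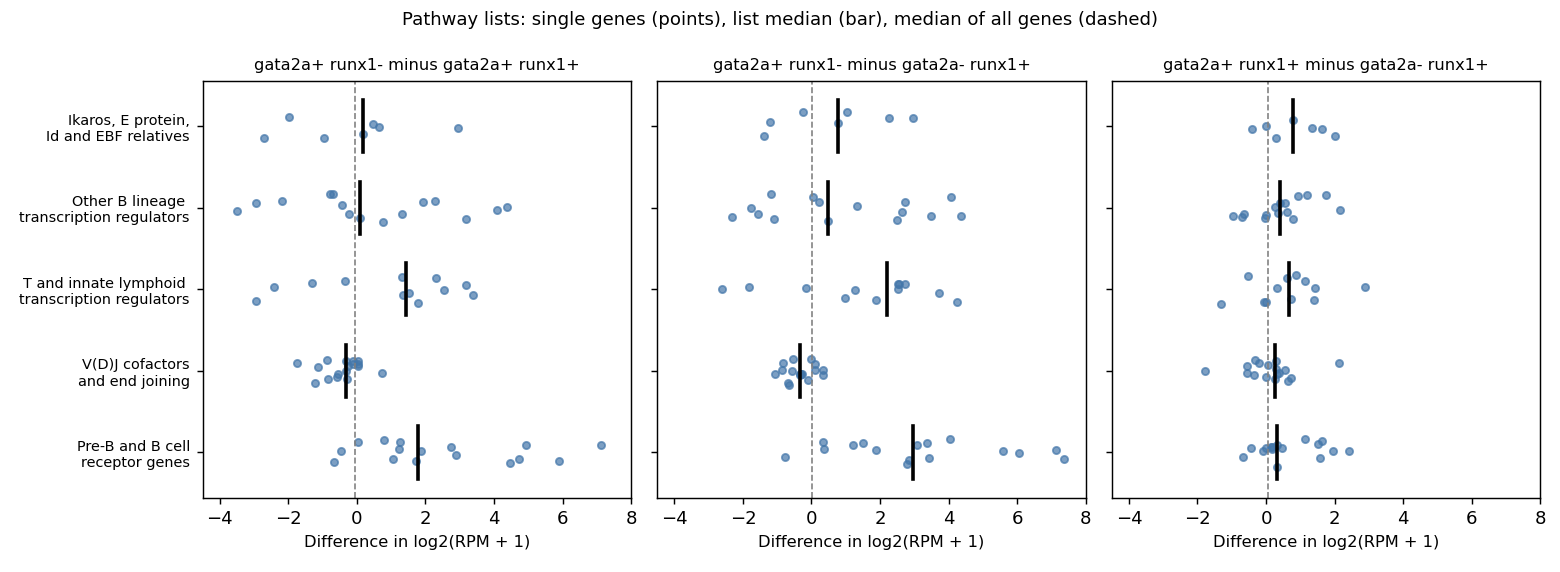
Difference in log2(RPM + 1) of single genes (points) in 5 gene lists for the 3 comparisons, *gata2a*+ *runx1*- minus *gata2a*+ *runx1*+, *gata2a*+ *runx1*- minus *gata2a*- *runx1*+, and *gata2a*+ *runx1*+ minus *gata2a*- *runx1*+ cells, over genes that averaged at least 1 RPM. Black bars are list medians and dashed lines the median of all 12339 genes. The B cell receptor list lies furthest to the right in the comparisons of *gata2a*+ *runx1*- cells, with medians of 1.78 and 2.96, whereas the end joining list has medians of -0.31 and -0.32 there.

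Markers of several cell types were also summed, and the sums did not all follow the same order of libraries. The 5 B cell markers (*cd79a*, *cd79b*, *ighm*, *ighz*, and *igl4v8*) summed to 2531 RPM in the *gata2a*+ *runx1*- library, 71.4 RPM in the *gata2a*+ *runx1*+ library, and 13.4 RPM in the *gata2a*- *runx1*+ library, with 5, 2, and 2 of them over the floor. Most of each sum was *ighm*, at 2023, 64.9, and 11.2 RPM in the same order. Except for *igl4v8*, these markers are also genes of the B cell receptor list. Of the T cell markers, 4 of 6 were matched and summed to 17.1, 3.45, and 0.24 RPM in the same order, nearly all of it *zap70*, a kinase of the T cell receptor that NK cells also use, with 127, 28, and 2 reads. *cd8a* had 7 reads and *lck* and *cd4-1* 2 reads each in the *gata2a*+ *runx1*- library, and these 3 genes had 0 reads in the other two libraries. The 3 NK-like markers summed to 7.78 RPM in the *gata2a*+ *runx1*- library, 0.25 RPM in the *gata2a*+ *runx1*+ library, and 0.61 RPM in the *gata2a*- *runx1*+ library.

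The endothelial markers, included because the *gata2a* transgene also marks vessels, summed to 160.7 RPM in the *gata2a*+ *runx1*- library, 1489 RPM in the *gata2a*+ *runx1*+ library, and 520.1 RPM in the *gata2a*- *runx1*+ library, most of it FLI1, which blood cells also use. The vessel genes *kdrl* and *cdh5* had 693 and 119 reads in the *gata2a*+ *runx1*- library, 0 and 2 reads in the *gata2a*+ *runx1*+ library, and 0 and 0 reads in the *gata2a*- *runx1*+ library. The vessel gene *tie1* did not share this pattern, with 2, 0, and 4 reads in the same order of libraries. Of the kidney tubule markers (3 of 5 matched), *cdh17* had 23 reads in the *gata2a*+ *runx1*- library and 0 reads in the others. *slc12a3* had 0 reads in each library, and *pax8* was at or under the floor throughout, with 3, 2, and 0 reads in the same order of libraries. Macrophage markers (3 of 5 matched) summed to 2415 RPM in the *gata2a*+ *runx1*- library, 1384 RPM in the *gata2a*+ *runx1*+ library, and 347.7 RPM in the *gata2a*- *runx1*+ library, mostly *cd74a*, which B cells also express. In the same order, *marco* had 78, 138, and 29 reads and *csf1ra* 25, 8, and 0 reads. The part of these other cells in the levels of *ikzf2*, *pax5*, EBF1, and *rag1* was not tested.

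Erythroid markers ran opposite to the B cell markers, at 0.62 RPM in the *gata2a*+ *runx1*- library, 57.0 RPM in the *gata2a*+ *runx1*+ library, and 399.5 RPM in the *gata2a*- *runx1*+ library, with *alas2* at 0 reads in each library. Thrombocyte markers summed to 29.2, 68.9, and 639.8 RPM in the same order. Of these, *itga2b* and *gp1bb* followed the order of the sum. A gene listed as THBS1, with 190, 4, and 804 reads, and *mpl*, with 2, 48, and 24 reads, did not. Neutrophil markers (4 of 5 matched) stood at 419.2 RPM in the *gata2a*+ *runx1*- library, 325.8 RPM in the *gata2a*+ *runx1*+ library, and 512.7 RPM in the *gata2a*- *runx1*+ library. Most of this was *npsn*, with 2923, 1489, and 2397 reads, and the single markers differed in order. *mpx* had 407, 860, and 1757 reads, *mmp9* 58, 297, and 49, and *lyz* 5, 1, and 4. Under the label of *gata2a*+ *runx1*- cells as lymphoid, the 5 B cell markers were thus over the floor, and of the 4 matched T cell markers *zap70* and *cd8a* were over it and *lck* and *cd4-1* were not.

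The genes with the pattern most like each of 3 members were sought among 11944 named genes that averaged at least 1 RPM, by the Euclidean distance of log2(RPM + 1) after centring on the mean of the 3 libraries. Nearest to *pax5* were PPP1R3C (distance 0.094), *sla2a* (0.11), and COL5A2 (0.18), and 28 genes lay within 0.5. Nearest to *ikzf1* were *si:dkey-41c6.3* (0.0093), ZCCHC24 (0.021), and MARCHF8 (0.021), with 912 genes within 0.5, and *rag1* had 11 genes at a distance of 0 and 378 within 0.5. With 3 libraries, many genes share any given pattern, and the likeness is a description only.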

How the data were processed

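RNA-seq was performed by the authors on 3 sorted populations with 1 library each, by Quartz-Seq (oligo-dT priming and PCR of the cDNA) and Nextera XT. Per the study's methods and the submitters' processing notes, reads were mapped to GRCz11 with HISAT2 2.1.0, and RPM were calculated by the authors with Subread 1.6.4 and deposited with 2 decimals. The annotation release, the use of strand, and the treatment of reads with several matches are not given in the sources used here, so that reads of close paralogs are uncertain. Since 100% of the deposited RPM values in each library were whole multiples of 1 read (tolerance 0.0051 RPM), reads were recovered from them, 8094670 in *gata2a*+ *runx1*-, 8123636 in *gata2a*+ *runx1*+, and 8205803 in *gata2a*- *runx1*+ cells. Genes with a read numbered 16337, 16352, and 15366 in that order.

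The members and gene lists were chosen with earlier results of these data known. Symbols came from a table of identifiers and RefSeq (GRCz12tu, for names and gene order only), and some genes are listed there under the human symbol. A gene was called where its RPM differed by over 2-fold, with 3 reads or fewer taken as 3 reads, and was counted as tested with over 3 reads in either library. Ratios have exact conditional binomial intervals and levels Wilson intervals, both at 95%. Reads were also compared by Fisher's exact test (two-sided, scipy 1.17.1), with p-values adjusted over all genes tested after Benjamini and Hochberg, which compares 2 libraries, not populations. It called 10350 of 15724 genes between *gata2a*+ *runx1*- and *gata2a*+ *runx1*+, 10541 of 15375 between *gata2a*+ *runx1*- and *gata2a*- *runx1*+, and 8691 of 14886 between *gata2a*+ *runx1*+ and *gata2a*- *runx1*+ cells, so little is read from it. The steps were tested on simulated data.

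The genes named are all members, *gata2a* and *runx1*, list genes compared with a member of their family, up to 5 genes per list and comparison with the largest difference of log2(RPM + 1) among those over 2-fold with an adjusted p under 0.05, the 3 genes most like *pax5* and *ikzf1*, and markers. The 3 genes nearest to *rag1* are not named because 11 tie. Alternatives were floors of 1 and 10 reads, fold limits of 1.5 and 4, minimum means of 1 and 5 RPM, RPM + 1 in place of the floor, other pseudocounts for list medians, RPM without the 20 most read genes of each library, the Fisher's test as a further condition, and rescaling in R 4.3.3 by TMM (edgeR 4.0.16) or by DESeq2 1.42.0 size factors. No sequence is shown.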

Additional observations from a re-analysis of the deposited data

How the results depend on the processing

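Of 99 alternative counts of the genes called, 81 stayed within 1.5 times the count reported. The others follow. With a minimum mean of 5 RPM, 2 of the 4 genes higher in *gata2a*+ *runx1*- than in *gata2a*+ *runx1*+ cells, 3 of the 5 higher in *gata2a*+ *runx1*- than in *gata2a*- *runx1*+ cells, and 2 of the 4 enriched in *gata2a*+ *runx1*- cells were left, since fewer genes were tested. The count of genes lower in *gata2a*+ *runx1*- than in *gata2a*+ *runx1*+ cells, 2 as reported, was 0 with a floor of 10 reads, a fold limit of 4, or a minimum mean of 1 or 5 RPM, and 1 with RPM + 1. The count of genes lower in *gata2a*+ *runx1*- than in *gata2a*- *runx1*+ cells, 1 as reported, was 0 under each of these 5 settings. Between *gata2a*+ *runx1*+ and *gata2a*- *runx1*+ cells, 1 of 3 genes, *ikzf2*, was over a fold limit of 4. *rag2*, enriched in *gata2a*+ *runx1*+ cells as reported, gave a count of 0 with a floor of 10 reads, a fold limit of 4, or a minimum mean of 1 or 5 RPM. No called direction of a gene turned round. The DESeq2 size factors shifted the log2 ratios of *gata2a*+ *runx1*- to *gata2a*+ *runx1*+ cells by 0.10 for all genes, and the other rescalings by 0.08 or less in size. Of 97 alternative log2 ratios of the genes, 82 moved by less than the counting interval. Most of the others were those of *pax5*, EBF1 ENSDARG00000099849, and *rag1* with a floor of 10 reads or RPM + 1, in both comparisons of *gata2a*+ *runx1*- cells. The rest were of *ikzf1* under rescaling and of *ikzf2* with RPM + 1. Of 126 alternative medians over the members and the lists, 28 moved beyond the limit set for a median. Among the list medians, that of the relatives of Ikaros, E protein, Id, and EBF between *gata2a*+ *runx1*- and *gata2a*+ *runx1*+ cells turned to -0.95 with a minimum mean of 5 RPM. Without a minimum mean, the medians of the B lineage regulators were 0.00 and 0.28 in *gata2a*+ *runx1*- against *gata2a*+ *runx1*+ and *gata2a*- *runx1*+ cells, and that of the end joining list was 0.16 in *gata2a*+ *runx1*+ against *gata2a*- *runx1*+ cells. In that last comparison, the B cell receptor list had 0.17 with a minimum mean of 5 RPM and the T cell list 0.41 with a pseudocount of 5. No paired analysis was possible because each population has 1 library, and for the same reason no replicate could be left out. The depth limits *dntt*, *tcf3a*, *rag2*, and EBF1 ENSDARG00000069196, each with under 10 reads in every library. List genes called over 2-fold on under 10 reads in every library included *id4*, BCL6, *dclre1c*, *inpp5d*, *nfil3*, *bcl11bb*, and *hes1*. The counts of list genes were not repeated with other floors.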
